A study of Mus musculus with 24 samples.

Results

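The genes of mast cells were followed in mouse adipose tissue as a set of 10: 9 genes that mast cells use for their granules, for binding IgE and for growth, and Kitl, which encodes the growth factor they depend on. They were taken by symbol, and all 10 were found among the 24421 gene symbols counted in each library. Total RNA was sequenced from adipose tissue of C57BL/6 mice aged 2 months. They were either wild type (WT) or had STAT5B-Y665F or STAT5B-Y665H, in which 1 tyrosine of this transcription factor is phenylalanine or histidine. With 4 libraries for each genotype in each sex, there were 6 groups and 24 libraries. How the alleles were made, whether they were on 1 or both chromosomes, and which fat depot was taken are not given in the sources used here. Nothing in the labels says whether the 4 libraries of a group came from separate animals, so p-values measure the spread between these libraries.

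Mast cells are tissue-resident immune cells that store histamine and proteases bound to serglycin in secretory granules and release them when IgE on their surface meets antigen. They grow and survive through the receptor tyrosine kinase KIT and its ligand, the stem cell factor KITL, which stromal and endothelial cells make. STAT5 is activated downstream of KIT and of the interleukin-3 receptor in mast cells, and in adipose tissue mast cells lie along vessels and in connective tissue.

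Levels are counts per 1e6 gene counts (CPM), and M stands for 1e6. Depth, the sum of gene counts, had a median of 34.6 M and was lowest in Y665F male 3 (21.0 M) and highest in Y665H male 4 (41.3 M), and a count of 0 allowed up to 0.0726 to 0.143 CPM (3 counts) depending on the library. The 8 adipocyte genes listed were above 1 CPM on average in every group, and their summed level ran from 5795 CPM in WT male 2 to 23510 CPM. Several male libraries held RNA of epididymis genes, summing to 12088 CPM in WT male 2, 3072 CPM in WT male 3 and 1603 CPM in Y665H male 3, against at most 0.584 CPM in any female library. Y665F female 3 had the highest sums of epithelial (1848 CPM) and smooth muscle genes (14256 CPM), and other libraries were raised too. Epithelial genes summed to 1316 CPM in WT male 2 and smooth muscle genes to 6508 CPM in Y665F male 4. Skeletal muscle genes summed to 1480 CPM in Y665H female 3. Each comparison below was therefore also run without each library in turn. Those with males were also run without the 3 male libraries named for epididymis genes together. In bulk tissue, fewer mast cells and less RNA per mast cell cannot be told apart.

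The granule genes of connective tissue mast cells were present. The proteases of mucosal mast cells and Mcpt8 of basophils were at or near 0, while Prss34 of the basophil list was counted in every library. Mcpt1 and Mcpt2, the proteases of mucosal mast cells, each had 0 counts in 23 of 24 libraries. Mcpt8, a protease of basophils, had 0 counts in 18 libraries and at most 1 count in the others. Prss34, also a protease in the basophil list, had 4 to 28 counts in every library, at a mean of 0.433 CPM. The 4 basophil genes together summed to 0.320 to 2.31 CPM in 23 libraries and to 8.07 CPM in Y665F female 3, where Cd200r3 alone had 7.25 CPM. Mrgprb2, the receptor for cationic peptides on connective tissue mast cells, was counted in all 24 libraries at a mean of 0.198 CPM, and Mrgprb1 at 0.715 CPM. Of 6 genes of melanocytes, another KIT-dependent cell, Tyr had 0 counts in 21 libraries and Tyrp1 in 13, while Dct and Pmel were counted in all 24, at a mean of 1.12 and 2.93 CPM. The 6 genes summed to 1.5 to 5.44 CPM in 23 libraries and to 40.5 CPM in WT male 2, where Pmel alone had 39.6 CPM. Levels of different genes were compared per kilobase of merged exons, as the mean over 24 libraries. On that scale Kitl was highest at 11.8 CPM per kb, followed by Mcpt4 at 4.42, Tpsb2 at 4.00, Cma1 at 3.11, Kit at 2.55 and Cpa3 at 1.73. Hdc followed at 0.610, Fcer1a at 0.218, Tpsab1 at 0.102 and Ms4a2 at 0.101 CPM per kb. From 1 library to another, neighbours in this order overlapped widely: Mcpt4 ran from 0.837 to 7.01 and Tpsb2 from 1.34 to 5.97 CPM per kb.

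The genes lie at 8 separate places and 2 of the places hold a pair (GRCm38, GENCODE annotation). Mcpt4 (14:56059629-56062313, minus strand) and Cma1 (14:55941451-55944675, minus strand) are 114954 bases apart in the cluster of granule chymases. Tpsb2 (17:25366305-25369098, plus strand) and Tpsab1 (17:25343245-25345562, minus strand) are 20743 bases apart in the tryptase cluster. Cpa3 is at 3:20215620-20242181 (minus strand), Hdc at 2:126593667-126619299 (minus), Fcer1a at 1:173221284-173227214 (minus) and Ms4a2 at 19:11615523-11623719 (minus). Kit is at 5:75574916-75656722 (plus) and Kitl at 10:100015630-100100416 (plus). Of all stretches of 50 bases in their annotated transcripts, 5.48% of those of Mcpt4 are also found in transcripts of another gene, mostly Cma2, and 5.38% of those of Cma1, mostly Gm48934. Reads from those stretches may have been dropped or split by the counting, so the levels of Mcpt4 and Cma1 are uncertain to that extent. For Ms4a2 the share was 2.1%, for Hdc 0.141%, and for the other 6 genes 0. Kitl has 6 and Kit 8 annotated transcripts, and counts per gene do not separate the soluble from the membrane-bound form of KITL.

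Promoter sequence from RefSeq (GRCm38.p6) was at hand for 8 of the 10 genes, all but Tpsb2 and Tpsab1. Kit had an additional start, which was also searched. The RefSeq start of Fcer1a was not found in its GENCODE transcripts. The window of Hdc (2:126618679-126618928) lay inside its GENCODE gene, so the bases before the end given above were not searched. The 250 bases before each start were searched on both strands for the letters AGATAA or TGATAA, which GATA factors such as the mast cell factor GATA2 bind. They were found before Cpa3, Mcpt4, Fcer1a and Ms4a2, against 16.6% of the 32851 promoters in the table. The last 110 bases before the start of each of these 4 genes are shown, 5′ to 3′ on the strand of the gene. They were chosen because they held a match, and Cma1, Kit, Kitl and Hdc held none. Capitals mark the GATA letters or their reverse complement.
Cpa3: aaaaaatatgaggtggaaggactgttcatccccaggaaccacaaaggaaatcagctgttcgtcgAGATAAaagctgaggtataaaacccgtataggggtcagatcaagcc
Mcpt4: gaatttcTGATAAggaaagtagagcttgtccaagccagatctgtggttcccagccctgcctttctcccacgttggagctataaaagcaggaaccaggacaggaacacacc
Fcer1a: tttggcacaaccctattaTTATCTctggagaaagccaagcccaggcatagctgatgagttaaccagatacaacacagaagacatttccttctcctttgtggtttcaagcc
Ms4a2: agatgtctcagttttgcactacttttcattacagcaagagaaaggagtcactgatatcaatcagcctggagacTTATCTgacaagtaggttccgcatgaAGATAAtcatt

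These windows are chr3:20242182-20242291, chr14:56062311-56062420, chr1:173227230-173227339 and chr19:11623720-11623829, all on the minus strand. Counted from the RefSeq start, the GATA letters stood at -46 to -41 for Cpa3, -103 to -98 for Mcpt4 and -92 to -87 for Fcer1a. Ms4a2 held them at -37 to -32 and -11 to -6, and at -224 to -219 outside the stretch shown. The letters TTCNNNGAA, to which STAT5 dimers bind, were in none of the windows of the 8 genes and in 7.02% of all promoters. CACGTG, which MITF binds, was also in none, against 6.02% of all promoters. Cpa3, Mcpt4, Kitl and Fcer1a held TATAAA, which 12.4% of promoters hold. A match is a description of the letters, and no match says only that the letters are not in the window.

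No genotype effect on the 10 genes passed the test in either sex. The test was the quasi-likelihood F test of edgeR with p-values adjusted over all tested genes (Benjamini-Hochberg), and genes below an adjusted p of 0.05 count as called. In females, Y665F against WT called 0 of the 8 members tested (1 at an unadjusted p under 0.05, 1 called by DESeq2), where the call rate over all 15642 tested genes was 3.33% and 26.3% were under 0.05 unadjusted. For Y665H against WT in females it called 0 of 8 (0 unadjusted, 0 by DESeq2). Of all genes, 3.34% were called there and 23.8% were under 0.05 unadjusted. Between the mutants in females, 0 of 7 members were called (1 unadjusted, 0 by DESeq2). Of all genes, 17.4% were called there and 33.4% were under 0.05 unadjusted. In males fewer genes were called, and their number depended on the fit. Y665F against WT called 0 of 7 members (0 unadjusted, 0 by DESeq2) and 0% of all genes, of which 2772 had an unadjusted p under 0.05. Over all genes of that comparison DESeq2 called 1036, the fit over all 24 libraries 2261 and the fit without WT male 1 570. Y665H against WT called 0 of 8 (1 unadjusted, 0 by DESeq2) and 0% of all genes, of which 1874 had an unadjusted p under 0.05, DESeq2 called 64 and the fit over all 24 libraries 203. Y665H against Y665F in males called 0 of 9 (3 unadjusted, 0 by DESeq2). Of all genes, 1.03% were called there and 18.0% were under 0.05 unadjusted. The members that were not tested, 1 to 3 in each of these comparisons, were from Tpsab1, Fcer1a and Ms4a2, whose counts were below the filter.

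**Figure D1:**
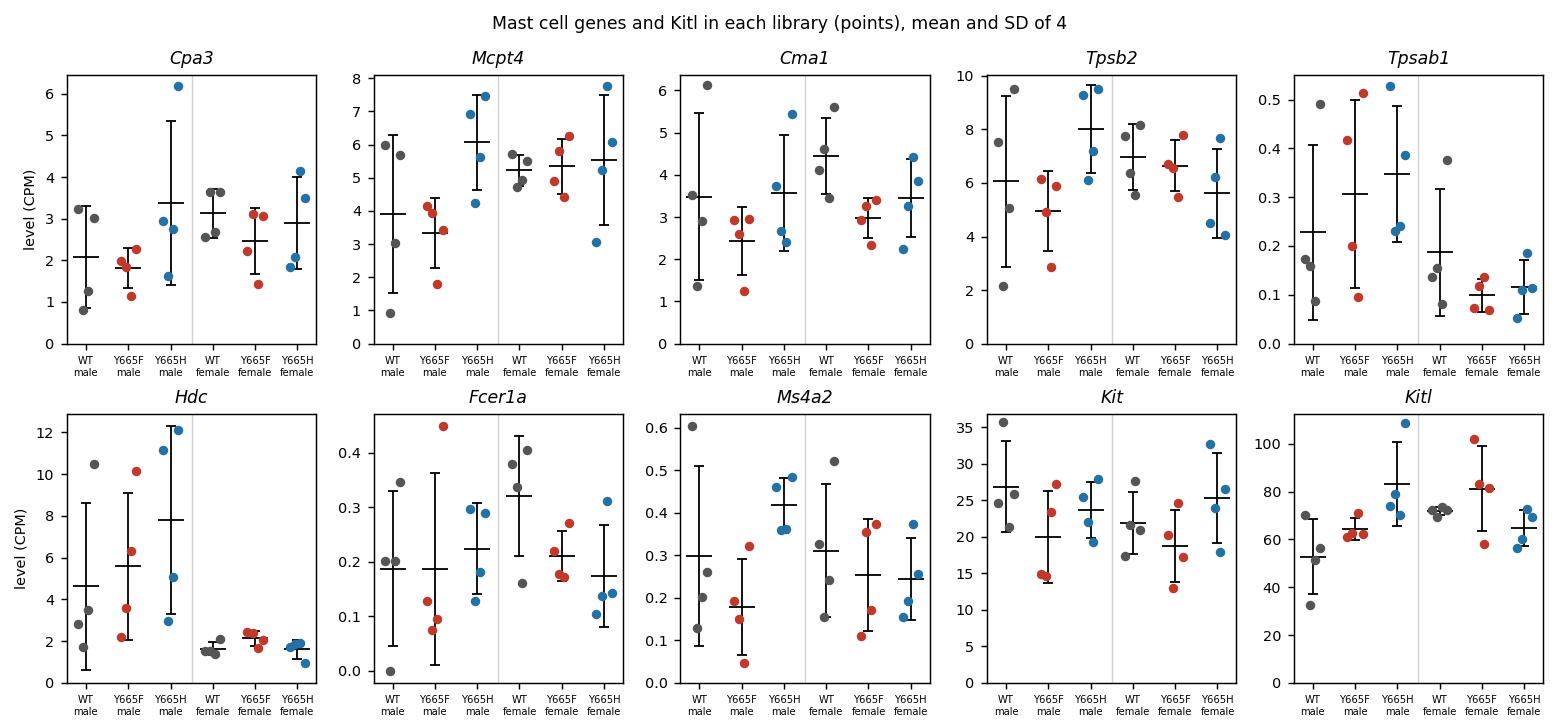
Level in CPM (y axis) of each of the 10 genes in the 24 libraries (points), by genotype and sex, with the mean and SD of the 4 libraries of a group in black. The groups overlap in most panels, WT male 2 is lowest for Cpa3, Mcpt4, Tpsb2 and Kitl and highest for Kit, and Hdc reaches 12.1 CPM in males against at most 2.42 CPM in females.

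The 4 proteases with more than 20 counts in every library are described first. Cpa3 encodes carboxypeptidase A3, the most widely shared mast cell protease. It stood at 2.55, 3.63, 2.69 and 3.64 CPM in females that were WT, at 2.23, 3.10, 1.44 and 3.06 in Y665F females and at 1.83, 2.09, 4.13 and 3.49 in Y665H females. In WT males it was at 3.22, 0.799, 1.27 and 3.01 CPM, in Y665F males at 1.99, 1.83, 1.14 and 2.28, and in Y665H males at 2.93, 1.62, 2.75 and 6.19. The groups overlapped in every comparison, and the widest contrast was between the mutants in males, a log2 fold change of 0.83 (SE 0.38, adjusted p = 0.300, edgeR).

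Mcpt4 encodes a chymase of connective tissue mast cells. Its levels in WT females were 5.72, 4.72, 4.92 and 5.52 CPM, in Y665F females 4.91, 5.79, 4.43 and 6.25, and in Y665H females 3.07, 5.24, 7.77 and 6.08. In WT males they were 5.99, 0.927, 3.02 and 5.70 CPM, in Y665F males 4.14, 3.94, 1.81 and 3.43, and in Y665H males 6.92, 4.24, 5.62 and 7.47. Every Y665H male library was above every Y665F male library, with a log2 fold change of 0.81 (SE 0.27) that was not called (adjusted p = 0.178, edgeR; 0.0664 to 0.359 over the alternative settings). In females the mutants differed by 0.18 on the log2 scale (SE 0.25), and Y665F against WT gave -0.10 (SE 0.15), or 0.03 when scaled by library totals.

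Cma1 encodes mast cell protease 5, another chymase of the same cells. Levels were 4.12, 4.62, 3.44 and 5.61 CPM in WT females and 2.93, 3.25, 2.34 and 3.40 CPM in Y665F females, so that the groups did not overlap. The log2 fold change of -0.71 (SE 0.20) had an adjusted p of 0.0886 with edgeR and 0.0198 with DESeq2, and it was the only one of the members called by DESeq2 in any of the 9 comparisons. In Y665H females Cma1 was at 2.25, 3.27, 4.41 and 3.86 CPM, overlapping both other groups. The level in WT males was 3.51, 1.37, 2.91 and 6.13 CPM, in Y665F males 2.92, 2.59, 1.24 and 2.95 and in Y665H males 3.72, 2.67, 2.42 and 5.44, and these groups overlapped too.

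Tpsb2 encodes the tryptase mast cell protease 6, and it took 23.2 to 41.8% of the summed CPM of the 4 proteases in each library. It was at 7.51, 2.14, 5.06 and 9.52 CPM in WT males, 6.16, 4.90, 2.86 and 5.87 in Y665F males, and 9.30, 6.12, 7.19 and 9.51 in Y665H males. Between the mutant males the log2 fold change was 0.65 (SE 0.24, adjusted p = 0.205, edgeR), and the groups overlapped by 1 library on each side. Female groups lay close together, with means of 6.96 ± 1.22 CPM in WT, 6.64 ± 0.947 in Y665F and 5.62 ± 1.66 in Y665H (SD, n = 4). Tpsab1 encodes a related tryptase, mast cell protease 7, which C57BL/6 mice are known to lack as a protein. It had only 2 to 17 counts in a library, with group means from 0.0992 ± 0.0340 CPM in Y665F females to 0.347 ± 0.140 CPM in Y665H males (SD, n = 4).

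Summed over Cpa3, Mcpt4, Cma1 and Tpsb2, the protease level in females was 19.8 ± 2.62 CPM for WT, 17.4 ± 2.91 for Y665F and 17.5 ± 5.07 for Y665H (SD, n = 4). In males it was 15.5 ± 8.50 CPM in WT, 12.5 ± 3.73 in Y665F and 21.0 ± 6.08 in Y665H. The spread in WT males ran from 5.24 CPM in WT male 2, the library with the lowest adipocyte sum and the highest epididymis sum, to 24.4 CPM in WT male 4, whose epididymis sum was 1206 CPM. The part of the other tissue in this spread was not tested.

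**Figure D2:**
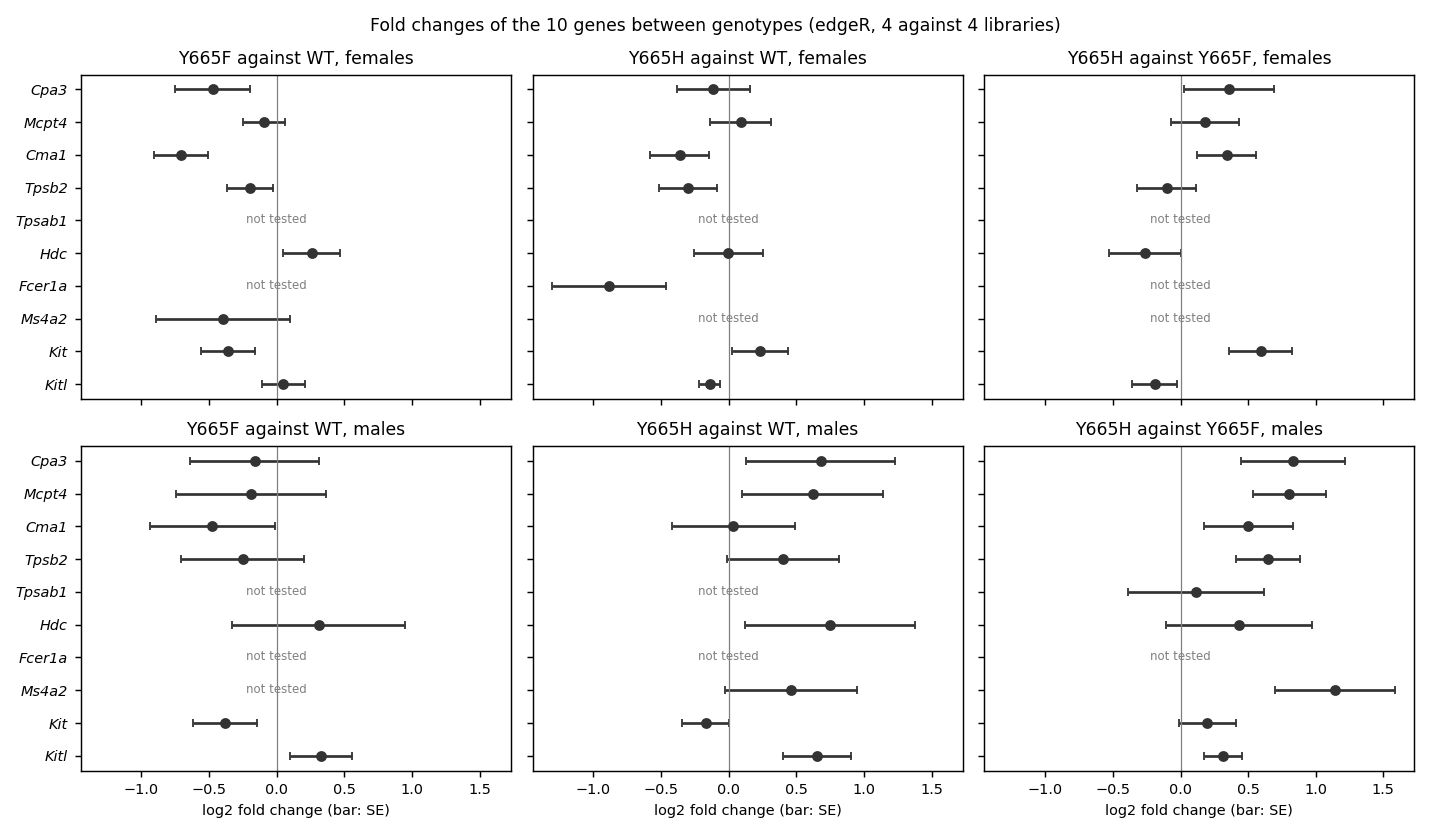
Log2 fold change (x axis) of each of the 10 genes (y axis) in the 6 comparisons between genotypes, from edgeR fits of 4 against 4 libraries, with bars of 1 SE. Genes below the count filter are marked as not tested, no gene was called, and the 9 genes tested between Y665H and Y665F males all lie above 0. Over all tested genes of that comparison 47.8% lie above 0. The 9 are not independent, since 4 proteases among them rise and fall together.

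The alpha and beta chains of the IgE receptor were close to the limit of counting, unlike Fcer1g of the signalling list below (mean 15.6 CPM). Fcer1a encodes the alpha chain, which binds IgE, and Ms4a2 the beta chain, which amplifies the signal. Fcer1a had 0 to 14 counts in a library, and WT male 2 had none, which allows up to 0.0959 CPM there. Its group means ran from 0.173 ± 0.0933 CPM in Y665H females to 0.321 ± 0.11 CPM in WT females (SD, n = 4), a difference of -0.88 on the log2 scale (SE 0.42, adjusted p = 0.237, edgeR). Ms4a2 stood at 0.461, 0.36, 0.363 and 0.484 CPM in Y665H males and at 0.193, 0.151, 0.0477 and 0.321 CPM in Y665F males. These groups did not overlap, yet they rested on 12 to 20 and 1 to 10 counts a library, and the log2 fold change of 1.14 (SE 0.44) was not called (adjusted p = 0.227, edgeR).

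Kit encodes the receptor tyrosine kinase KIT. In Y665F females it was at 20.3, 13.0, 24.7 and 17.2 CPM and in Y665H females at 32.7, 24.0, 17.9 and 26.6, a log2 fold change of 0.59 (SE 0.23, adjusted p = 0.116, edgeR) between overlapping groups. WT females were at 17.4, 21.6, 27.7 and 20.9 CPM, between the mutants on average. WT males were at 24.6, 35.7, 21.3 and 25.8 CPM, Y665F males at 14.9, 14.6, 23.4 and 27.2, and Y665H males at 25.5, 22.0, 19.3 and 27.9. The highest value of all was in WT male 2, where Cpa3, Mcpt4, Tpsb2 and the protease sum were lowest. The melanocyte sum was highest there at 40.5 CPM, of which Pmel alone made 39.6 CPM. The part of melanocytes in the level of Kit was not tested.

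Kitl encodes the KIT ligand. WT females lay within a narrow range of 69.3 to 73.5 CPM (72.4, 69.3, 73.5 and 72.2). Y665F females spread from 58.2 to 102 CPM (102, 83.2, 58.2 and 81.7) around them, and Y665H females were at 56.5, 60.2, 72.7 and 69.2 CPM. WT males were lower and more spread, at 70.4, 32.8, 51.5 and 56.6 CPM, followed by Y665F males at 61.2, 62.8, 71.2 and 62.2 and Y665H males at 74.1, 79.1, 70.2 and 109. Y665H against WT in males gave a log2 fold change of 0.65 (SE 0.25, adjusted p = 0.402, edgeR; 0.0620 to 0.909 over the alternatives), and in females -0.14 (SE 0.08, adjusted p = 0.302).

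The sexes were then compared in how each mutation shifted the genes, as an interaction over 16 libraries, with all 10 members above the filter. For Y665F, 0 of 10 members were called (0 unadjusted, 0 by DESeq2) and 0% of all genes, of which 3645 had an unadjusted p under 0.05, DESeq2 called 1147 and the fit without WT male 1 1686. For Y665H, 0 of 10 were called (1 unadjusted, 0 by DESeq2). Of all genes, 0.0119% were called there and 18.3% were under 0.05 unadjusted. The member with an unadjusted p under 0.05 was Kitl, whose effect of Y665H was larger in males by 0.79 on the log2 scale (SE 0.26, adjusted p = 0.181, edgeR). Without WT male 1, the WT male library highest in Kitl, this rose to 1.03 and was called (adjusted p = 0.0162), and over the other settings the adjusted p reached 0.315. The interaction of the 4 proteases with Y665H ran from 0.41 for Cma1 to 0.79 for Cpa3, with adjusted p from 0.417 to 0.674.

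Between WT males and WT females, 0 of 8 members tested were called (2 unadjusted, 0 by DESeq2). Of all genes, 13.1% were called there and 33.5% were under 0.05 unadjusted. Kitl and Hdc were the members with an unadjusted p under 0.05. Kitl was lower in WT males by a log2 fold change of -0.59 (SE 0.21, adjusted p = 0.0962, edgeR), and without WT male 1 by -0.79 (adjusted p = 0.0186). In a fit over all 24 libraries, which shares 1 estimate of the spread, the adjusted p was 0.0191 for Kitl and 0.0482 for Hdc. WT male 2, the lowest in Kitl, was also the library with the lowest adipocyte sum, and without WT male 2 the log2 fold change of Kitl was -0.41 (adjusted p = 0.085).

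Hdc encodes histidine decarboxylase, the enzyme that makes histamine. WT males were at 2.82, 1.69, 3.48 and 10.5 CPM, Y665F males at 2.21, 3.59, 6.34 and 10.2, and Y665H males at 11.1, 2.96, 5.05 and 12.1. WT females were at 1.55, 1.5, 1.4 and 2.08 CPM, Y665F females at 2.42, 2.39, 1.65 and 2.07, and Y665H females at 1.70, 1.87, 1.93 and 0.937. Over the genotypes, males ran from 1.69 to 12.1 CPM (median 4.32) and females from 0.937 to 2.42 CPM (median 1.79), and 10 of 12 male libraries were above every female library. In WT alone the log2 fold change was 1.32 (SE 0.51, adjusted p = 0.114, edgeR), and without WT male 4, the highest WT male, it was 0.59 (adjusted p = 0.224). The lowest male value was in WT male 2, where the epididymis sum was highest. In the males highest in Hdc, that sum was 165 CPM in Y665H male 4 and 12.0 CPM in Y665H male 1. It was 1206 CPM in WT male 4 and 953 CPM in Y665F male 4. The part of other tissue in the level of Hdc was not tested. No other member had more than 5 male libraries above every female library. Over the 24 libraries, Hdc had a Pearson r of 0.17 with Cpa3, 0.08 with Mcpt4, 0.13 with Cma1, 0.34 with Tpsb2 and 0.71 with Tpsab1, given as a description. As deviations from the group means these were 0.49, 0.38, 0.56, 0.53 and 0.54.

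The 4 proteases rose and fell together from library to library. Over the 24 libraries, the 6 pairs among Cpa3, Mcpt4, Cma1 and Tpsb2 had a Pearson r of 0.74 to 0.87 and a Spearman rho of 0.70 to 0.85 on log2(CPM + 1). Taken as deviations from the group means, r was 0.72 to 0.90, and without WT male 2 it was 0.66 to 0.82. These values are descriptions, since all genes of a library share its depth and tissue make-up. Mcpt4 had r = 0.66 with Ms4a2 and 0.57 with Fcer1a, in spite of their low counts. With Kit, Mcpt4 had r = -0.36 and Cpa3 r = -0.15, which became -0.13 and 0.04 without WT male 2.

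**Figure D3:**
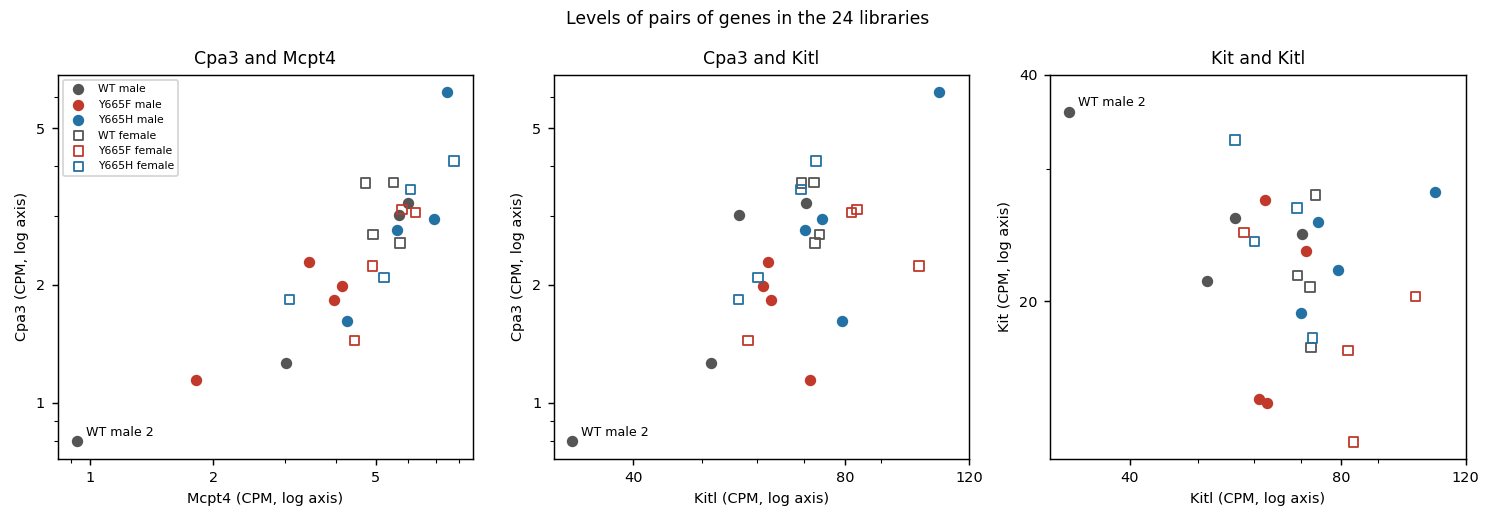
Levels in CPM of Cpa3 against Mcpt4, Cpa3 against Kitl and Kit against Kitl in the 24 libraries, on log axes, with colour for genotype, filled circles for males and open squares for females. Cpa3 and Mcpt4 rise together (r = 0.85), Cpa3 and Kitl less closely (r = 0.66), Kit and Kitl do not (r = -0.36), and WT male 2 is at an edge of each panel.

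Kitl was compared with Cpa3 and with its receptor Kit across libraries, as levels and as deviations from the group means, which made 4 relations. Kitl and Cpa3 had r = 0.66 as levels (permutation p = 0.00043, adjusted over the 4 relations 0.00086) and rho = 0.50 (permutation p = 0.0133, adjusted 0.0266). Without WT male 2 and Y665H male 4, the libraries farthest from the median of Kitl, r fell to 0.36. As deviations from the group means r was 0.70 (permutation p = 0.00014, adjusted 0.00056) and rho 0.66 (permutation p = 0.00067, adjusted 0.00268). Without WT male 2 and Y665F female 3 that r was 0.58. The permutations shuffled all 24 libraries and did not keep to groups, for the deviations too. Both pairs left out hold a library with RNA of other tissue, and its part in the relation was not tested. As a description, r of Kitl was 0.69 with Mcpt4, 0.60 with Tpsb2 and 0.43 with Cma1 as levels. Without WT male 2 it was 0.54 with Cpa3, 0.46 with Mcpt4, 0.35 with Tpsb2 and 0.21 with Cma1. Kitl and Kit had r = -0.36 as levels (permutation p = 0.0820, adjusted 0.109; rho -0.31, permutation p = 0.145, adjusted 0.193) and -0.32 without the same 2 libraries. As deviations r was -0.26 (permutation p = 0.225, adjusted 0.225; rho -0.23, permutation p = 0.284, adjusted 0.284) and 0.07 without 2 libraries.

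Genes outside the 10 were then ranked by their likeness to Cpa3 and Kitl across the 24 libraries, by Pearson r of log2(CPM + 1) among the 14831 other genes whose mean reached 1 CPM. The 5 highest for each are in none of the mast cell lists. For Cpa3, whose r was 0.85 with Mcpt4 and 0.84 with Cma1 among the 10, they were Ecm2 (r = 0.82), Igf1 (0.82), Tmod2 (0.82), Cept1 (0.80) and Jam2 (0.79), and their r as deviations from group means was 0.77 to 0.87. For Kitl they were Sp100 (r = 0.87), Sh3bgrl (0.87), Xdh (0.86), Gda (0.86) and Pkhd1l1 (0.85), with 0.76 to 0.93 as deviations. Of these 14831 genes, 4 had r above 0.8 with Cpa3 and 49 with Kitl.

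Of 13 genes that carry the signal of the IgE receptor, some were called between genotypes, most of them between the mutant females; the list was not tested against the granule proteases. Y665F against WT in females called 5 of 13 higher and 0 lower, where 3.33% of all genes were called in either direction, with a median log2 fold change of 0.68 over the list against 0.02 over all tested genes. The phospholipase Plcg2 had 29.6 ± 3.13 CPM in Y665F females against 16.8 ± 1.87 in WT (SD, n = 4; adjusted p = 0.0201, edgeR). The adaptor Lat was at 5.92 ± 1.34 against 1.33 ± 0.0949 CPM (adjusted p = 0.00884). The kinase Btk rose by 0.79 (SE 0.14) and the exchange factor Vav1 by 0.85 (SE 0.17) on the log2 scale. Lat was called in all 14 alternative settings, Plcg2 in 9, Btk and Vav1 in 7 and Lat2 in 4. Leaving out any 1 library but Y665F female 3 left 1 or 2 of the 13 called, and without Y665F female 3 there were 7. Y665H against WT in females called 1 of 13 lower, where 3.34% of all genes were called, and the list's median was -0.39. This was Plcg2 at 11.0 ± 1.02 CPM (adjusted p = 0.0236), a call lost without WT female 1 or 4, without Y665H female 1 or 3 and with a replicate block, and kept in the other 9 of 14 alternatives. Y665H against Y665F called 8 of 13 lower in females (median -1.16; 7 to 9 without single libraries), where 17.4% of all genes were called, and 3 of 13 in males (median -0.54), where 1.03% were. In males the count was 5 without Y665F male 4, 1 without Y665H male 4 and 0 without any other single library. With all libraries, 8 of 13 had an unadjusted p under 0.05 in edgeR, against 18.0% of all genes. DESeq2 called 7 of the list there, and 1078 of 15803 genes. Both contrasts with Y665F females use the same 4 libraries.

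**Figure D4:**
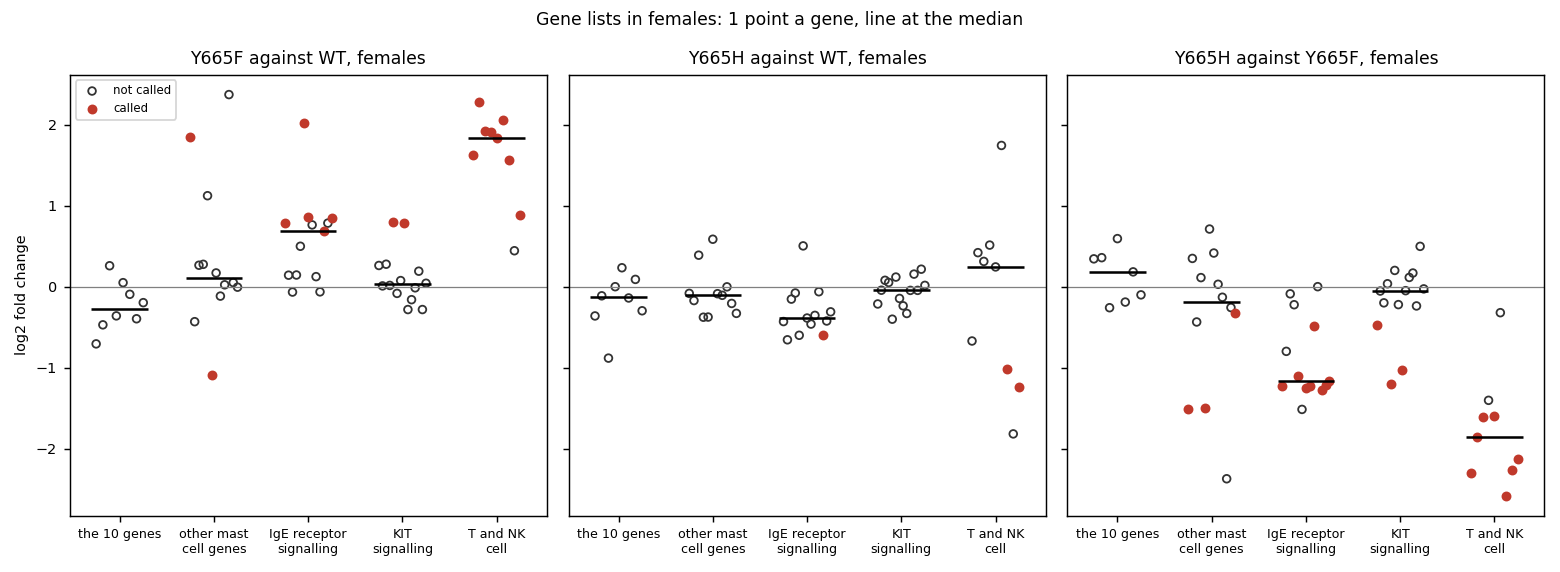
Log2 fold change (y axis) of each tested gene of 5 lists (1 point a gene, filled where called, line at the median) in the 3 comparisons between genotypes in females. Of the 10 mast cell and Kitl genes, 8, 8 and 7 were tested, none was called and they lie between -0.88 and 0.59, with medians of -0.28, -0.13 and 0.18. The IgE receptor signalling list has its median at 0.68, -0.39 and -1.16 and the T and NK cell list at 1.83, 0.24 and -1.86.

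Lymphocytes and macrophages use the same signalling genes, and their markers were counted in the same comparisons. In Y665F against WT females, 8 of 9 T and NK cell genes, 2 of 5 B cell genes and 0 of 8 macrophage genes were called higher. Over all genes 3.33% were called there. In Y665H against WT females, where 3.34% of all genes were called, 2 of 9 T and NK cell genes were called lower with the list's median at 0.24. There, 0 of 5 B cell and 0 of 8 macrophage genes were called, with medians of -0.03 and -0.30. In Y665H against Y665F females, 7 of 9 T and NK cell genes, 5 of 5 B cell genes and 4 of 8 macrophage genes were called lower. Over all genes 17.4% were called in that comparison. Of 5 eosinophil genes, 4 were tested in Y665F against WT females and 2 were called. These were Siglecf and Ccr3, higher in Y665F by 2.01 (SE 0.43) and 2.38 (SE 0.51) on the log2 scale, while the lowest of the 4 was at -0.0054. Between the mutant females 3 were tested and the same 2 were called, lower in Y665H by -3.34 (SE 0.52) and -3.12 (SE 0.65). The remaining gene tested there was at -0.04. The part of these cells in the change of the IgE receptor signalling list was not tested.

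Downstream of KIT, 2 of 14 signalling genes were called higher in Y665F than in WT females, where 3.33% of all genes were called, with the list's median at 0.03. They were the phosphatase Ptpn6, at 24.7 ± 1.32 against 13.1 ± 2.16 CPM (SD, n = 4; adjusted p = 0.0221, edgeR), and the kinase subunit Pik3cd, at 51.6 ± 6.80 against 27.2 ± 3.93 CPM (adjusted p = 0.0244). Both are expressed in leukocytes at large. They were called together without Y665F female 3, 1 of them without WT female 3, and neither without any other single library. With all libraries, 7 of 14 had an unadjusted p under 0.05 in edgeR, against 26.3% of all genes. DESeq2 called 2 of the list higher and 1 lower, and 2030 of 15629 genes. Against Y665F females, Y665H females had Ptpn6 and Pik3cd lower, by -1.02 (SE 0.10) and -1.20 (SE 0.12). The ubiquitin ligase Cbl was also lower, by -0.48 (SE 0.08), and these 3 calls held in all 14 alternatives. These 3 of 14 stand beside 17.4% of all genes called in that comparison, so the count is near the background.

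Of 18 further mast cell genes outside the 10, 12 were tested in Y665F against WT females, where 3.33% of all genes were called. Of these 12, 2 were called in opposite directions. Adora3, an adenosine receptor that enhances degranulation, was at 0.654 ± 0.180 against 0.164 ± 0.0594 CPM (SD, n = 4; adjusted p = 0.0325, edgeR). Ltc4s, the leukotriene C4 synthase, was at 20.1 ± 4.09 against 39.1 ± 10.1 CPM (adjusted p = 0.0423). The call of Adora3 held in 5 of 13 and that of Ltc4s in 7 of 14 alternatives. Between the mutant females, 3 of 12 tested were called, near the 17.4% of all genes called there. Y665H had lower Adora3 (-1.52, SE 0.34), Srgn, which encodes serglycin (-0.33, SE 0.09), and Il1rl1, the receptor for interleukin-33 (-1.50, SE 0.26). Il1rl1 was called in all 14 alternatives, Adora3 in 8 of 13 and Srgn in 4 of 14. Il1rl1 was also lower in Y665H than in Y665F males, at 9.76 ± 0.138 against 17.5 ± 2.16 CPM (adjusted p = 0.0219, called in 6 of 15 alternatives). Il1rl1 is shared with group 2 innate lymphoid cells, of whose 7 listed genes Il7r and Klrg1 were lower in Y665H than in Y665F females, by -2.06 (SE 0.36) and -3.16 (SE 0.59), and their part was not tested.

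Among 13 mast cell growth cytokines and their receptors, 11 were tested in Y665F against WT females, where 3.33% of all genes were called. Only Il9r was called, higher in Y665F at 1.43 ± 0.279 against 0.508 ± 0.169 CPM (SD, n = 4; adjusted p = 0.0419, edgeR). It was at 0.391 ± 0.0813 CPM in Y665H females and lower there than in Y665F females (adjusted p = 0.00436). The call against WT held without Y665F female 3 but was lost without any other single library, and that against Y665F held in all 13 alternatives. Of the granule proteases outside the 10, Gzmb, which cytotoxic lymphocytes also store, was the only gene called between genotypes. It was at 1.44 ± 0.418 CPM in Y665F, 0.494 ± 0.127 in WT and 0.116 ± 0.0820 in Y665H females (SD, n = 4). Its adjusted p was 0.0365 for Y665F against WT and 0.0486 for Y665H against WT, and these calls held in 4 of 13 and 2 of 13 alternatives. Gzmb was lower in Y665H than in Y665F females by -3.40 (adjusted p = 0.00260, edgeR), called in all 13 alternatives. Over all genes 17.4% were called there. Between the mutant males, where 1.03% of all genes were called, its call held in 7 of 15 alternatives. Of the 9 proteases listed, 2 were tested in each comparison of females.

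Of 6 tested genes of histamine breakdown, transport and reception, 2 were called between WT males and WT females, in opposite directions, where 13.1% of all genes were called. Hnmt, which methylates histamine inside cells, had a level of 10.7 ± 2.89 CPM in WT males against 18.4 ± 3.38 in WT females (SD, n = 4), with a log2 fold change of -0.93 (SE 0.23, adjusted p = 0.0376, edgeR), called in 6 of 15 alternatives. The call was lost with the replicate block, without the 3 male libraries richest in epididymis genes and without any 1 library other than WT male 1. Aoc1, the secreted diamine oxidase, had 18, 63, 93 and 53 counts in WT males and 2 counts over the 4 WT females (adjusted p = 0.00761), and was called in all 14 alternatives. The 18 counts were in WT male 1, whose epididymis sum was 1.06 CPM, the lowest of the WT males.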

How the data were processed

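Total RNA was depleted of ribosomal RNA, made into stranded libraries and sequenced as read pairs, per the labels' protocols. The authors deposited raw read counts per gene symbol, 1 file per library, in the layout of htseq-count. Per the submitters' processing notes, FastQC 0.11.9, Trimmomatic 0.36, STAR, SAMtools 1.9, Picard 2.9.2, HTSeq 0.9.1 and the build mm10 were used. The annotation and the strand setting are not given in the sources used here. The 5 entries that name no gene, 24.8 to 39.7% of all counts of a library, were left out.

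Counts were tested with edgeR 4.0.16 (R 4.3.3): TMM scaling, filterByExpr, glmQLFit and glmQLFTest, Benjamini-Hochberg adjustment over all tested genes and a threshold of 0.05. Each of 7 comparisons was fitted on its 8 libraries, and each of 2 sex interactions on 16. The SE is the log2 fold change divided by the root of F. The code was checked on simulated counts. Correlations used log2(CPM + 1), with 100000 permutations. Loci and exon lengths came from GENCODE M21 and promoters from RefSeq. Alternatives were DESeq2 1.42.0, library totals, no filter, a mean of at least 1 CPM, a fit over all 24 libraries, a replicate block and leaving out each library.

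All 10 genes are named in each comparison, of every other list at most 4 called genes per comparison with the smallest p or 3 levels, and the 5 genes most like Cpa3 and Kitl. The genes, the lists and the rule were chosen with earlier results of these data known. Leaving out 3 male libraries together, the alternatives for the lists and the genes most like Hdc were added after these values were seen.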

Additional observations from a re-analysis of the deposited data

Results flagged for a closer look

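In the 60 combinations of a gene and a group, the highest or lowest of the 4 libraries stood apart from the rest (Dixon's test at 95%) in 2, where chance gives about 1 in 20. Kitl was at 71.2 CPM (1495 counts) in Y665F male 3, the shallowest library, against 61.2 to 62.8 CPM in the other Y665F males. Fcer1a was at 0.449 CPM in Y665F male 4, which is 14 counts, against 0.0753 to 0.128 CPM in the other Y665F males.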

How the results depend on the processing

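The count of called members was 0 in all 9 comparisons and stayed at 0 in 144 of 148 alternative counts. DESeq2 called 1 in Y665F against WT females (Cma1), and the fit over all 24 libraries called 2 in WT males against WT females (Hdc, Kitl). Leaving out single libraries gave 0 to 1 in that comparison and 0 to 1 in the sex interaction of Y665H, in both through Kitl without WT male 1. Libraries of the same replicate number had correlations of deviations from -0.37 to 0.72, with at least 1 pair under 0.1 in each comparison. In WT males against WT females, 6 of 8 libraries correlated best with the library of their own number. In the other comparisons of groups this held for 1 to 3 of 8. A replicate block left 0 members called in each comparison. Without WT male 2, WT male 3 and Y665H male 3, an alternative chosen after seeing the data, 0 members were called. Of 75 fold changes of members, 25 changed sign in 64 of 1250 alternatives, none of them called. The cause was not tested. Scaled by library totals, Mcpt4 was at 0.035 in Y665F against WT females and Hdc at -0.12 in the sex interaction of Y665F. With the replicate block, Cpa3 was at 0.012 in Y665F against WT males. For Hdc in Y665H against WT females, no filter gave 0.0011 and the fit over all 24 libraries 0.0035. Without the 3 libraries rich in epididymis genes, Hdc was at -0.15 in Y665F against WT males, Cma1 at -0.24 and Kit at 0.040 in Y665H against WT males, and Mcpt4 at 0.016 and Tpsb2 at 0.13 in WT males against WT females. In the sex interaction of Y665F they were -0.21 for Cma1, -0.27 for Cpa3, -0.44 for Hdc and 0.070 for Kit. Leaving out 1 library at a time gave these ranges where a sign changed. For Y665F against WT, females, the ranges were Kitl -0.084 to 0.19 and Mcpt4 -0.18 to 0.00049. For Y665F against WT, males, the ranges were Cpa3 -0.41 to 0.17, Hdc -0.045 to 1.09, Mcpt4 -0.49 to 0.13 and Tpsb2 -0.51 to 0.030. For Y665H against WT, females, the ranges were Cpa3 -0.33 to 0.030, Hdc -0.084 to 0.19 and Mcpt4 -0.11 to 0.27. For Y665H against WT, males, the ranges were Cma1 -0.22 to 0.43 and Kit -0.24 to 0.0074. For Y665H against Y665F, females, the ranges were Mcpt4 -0.019 to 0.36 and Tpsb2 -0.28 to 0.035. For Y665H against Y665F, males, the range was Tpsab1 -0.14 to 0.43. For WT males against WT females, the range was Kit -0.024 to 0.26. For the sex interaction of Y665F, the ranges were Cma1 -0.019 to 0.61, Fcer1a -0.087 to 1.16, Hdc -0.33 to 0.80, Kit -0.16 to 0.14, Mcpt4 -0.41 to 0.25, Ms4a2 -0.66 to 0.36 and Tpsb2 -0.33 to 0.21. Counts over all genes moved more. For Y665F against WT males, 0 became 1036 with DESeq2, 2261 in the fit over all libraries and 570 without WT male 1. For Y665F against WT females, 521 became 2030 with DESeq2, 1164 with library totals and 67 to 747 without single libraries. For Y665H against WT females, 516 became 1782 with DESeq2, 250 in the fit over all libraries, 32 with the block and 20 to 1269 without single libraries. Y665H against Y665F gave 2689 in females (1583 with the block, at least 1554 without single libraries) and 164 in males (1078 with DESeq2, 400 in the fit over all libraries, 0 with the block, 33 without the 3 libraries, 10 to 220 without single libraries). WT males against WT females gave 2079 (3920 with DESeq2, 5987 over all libraries, 825 with the block, 569 without the 3 libraries, 251 to 5076 without single libraries). The sex interaction of Y665H gave 2 (684, 72 with library totals, 21 at 1 CPM, 201 over all libraries, up to 1844 without single libraries). Library totals moved the median log2 fold change of all genes from 0.02 to 0.15 in Y665F against WT females, from -0.03 to -0.18 between the mutant females, from 0.04 to 0.22 between WT sexes and from -0.06 to -0.25 in the sex interaction of Y665F. The 3 IgE signalling genes called between mutant males became 0 with the replicate block. Depth limits Tpsab1, Fcer1a and Ms4a2, at 0 to 21 counts a library.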

Other observations

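The genes most like Hdc were looked up after its values were seen. Among the 14831 genes outside the 10 whose mean reached 1 CPM, 193 had a Pearson r above 0.8 with Hdc over the 24 libraries, and 4 had one with Cpa3. The 5 most like it were Odf3b (r = 0.95, rho = 0.81), 2410004P03Rik (0.94, 0.83), Unc5cl (0.94, 0.90), Catip (0.94, 0.74) and Rdh16 (0.94, 0.84). As deviations from the group means, which removes the difference between the sexes, r was 0.87 to 0.90 for these 5 genes. Of the members, Tpsab1 had r = 0.71 with Hdc as levels, and as deviations Fcer1a had 0.73 and the 5 proteases 0.38 to 0.56. The mean levels of the 5 genes most like Hdc were low, from 1.39 to 3.38 CPM. These are descriptions over libraries that share depth and tissue make-up.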
